A study of Mus musculus with 10 samples.

Results

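The 10 genes described here belong to the osteoclast, the cell that dissolves bone, and were measured in RNA from mouse osteoblasts, the cells that build it. The genes are Nfatc1, Oscar, Itgb3, Calcr, Dcstamp, Ocstamp, Atp6v0d2, Clcn7, Acp5 and Ctsk. They were taken by name, as every probe set that the platform annotation assigns to 1 of these symbols, which gave 19 probe sets of the 45101 on the array and 10 genes of the 18194 named there. Tnfsf11, which encodes RANKL, and Tnfrsf11b, which encodes osteoprotegerin, were set beside them. Of the 10 genes, 9 passed the filter on low signal and were tested, together with 11357 genes in all, and Calcr did not pass it.

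The study measured total RNA on 10 Affymetrix arrays, 1 per sample, in mice aged 2 to 3 days of a strain that the labels write as C5BL6. There were 4 wild-type samples, 3 samples with β-catenin constitutively expressed in osteoblasts (active β-catenin) and 3 samples after FoxO1 deletion in osteoblasts (FoxO1 deleted). The labels name no promoter for either allele, and they do not say whether a sample was 1 animal, a pool or a culture. The p-values therefore describe how these 10 samples scatter, and that scatter may be technical. Sex is recorded as undetermined.

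Osteoclasts arise from precursors of the monocyte and macrophage lineage. RANKL on osteoblasts and osteocytes binds the receptor RANK on the precursor and, with costimulation through receptors such as OSCAR, raises the transcription factor NFATc1. NFATc1 then drives the genes of cell fusion, acid secretion and matrix digestion. Osteoprotegerin is a soluble decoy that binds RANKL and keeps it from RANK. Osteoblasts make RANKL and osteoprotegerin, whereas the 10 genes are best known from the osteoclast itself, so cells other than osteoblasts may carry their signal here. Which cells gave it was not tested. In such bulk samples, fewer cells of a type and less RNA per cell cannot be told apart.

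The promoters of 3 members are shown because these genes are textbook targets of NFATc1 and its partners PU.1 and MITF, and because they represent signalling (Oscar) and matrix digestion (Acp5 and Ctsk). RefSeq promoters of assembly GRCm38.p6, from 250 bases before to 50 bases after an annotated start, were given for 5 of the 10 members with 9 starts in all. Both strands were searched for TGGAAA (the NFAT core), TGANTCA (AP-1), GAGGAA (PU.1), TCATGTG (MITF) and CTTTGA (TCF/LEF, the partners of β-catenin). Capitals mark every match, as read on the strand of the gene, and no match overlaps another. Of the 3 starts of Acp5, the one with 2 matches is shown, chosen after the matches were seen. The sequences lie at chr7:3616108-3616407 on the minus strand for Oscar, chr9:22130549-22130848 on the minus strand for Acp5 and chr3:95498960-95499259 on the plus strand for Ctsk.
Oscar: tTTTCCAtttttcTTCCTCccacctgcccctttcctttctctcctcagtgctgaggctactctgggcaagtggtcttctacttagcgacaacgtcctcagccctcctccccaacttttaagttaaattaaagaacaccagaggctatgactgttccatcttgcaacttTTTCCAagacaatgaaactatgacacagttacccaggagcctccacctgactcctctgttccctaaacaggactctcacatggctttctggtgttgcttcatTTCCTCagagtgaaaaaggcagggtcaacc
Acp5: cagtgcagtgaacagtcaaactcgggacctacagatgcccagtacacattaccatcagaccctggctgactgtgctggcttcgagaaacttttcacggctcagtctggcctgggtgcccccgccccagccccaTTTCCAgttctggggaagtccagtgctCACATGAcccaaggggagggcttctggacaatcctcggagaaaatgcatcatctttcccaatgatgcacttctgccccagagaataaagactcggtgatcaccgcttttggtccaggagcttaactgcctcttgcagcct
Ctsk: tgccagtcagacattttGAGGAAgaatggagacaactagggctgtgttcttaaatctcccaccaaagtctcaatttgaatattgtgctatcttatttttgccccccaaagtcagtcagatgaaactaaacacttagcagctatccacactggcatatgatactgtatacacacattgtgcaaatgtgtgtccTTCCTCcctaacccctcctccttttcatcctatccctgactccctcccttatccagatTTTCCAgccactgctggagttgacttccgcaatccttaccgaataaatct

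In Oscar, NFAT cores start at -249 and -82 and PU.1 cores at -237 and 20, counted with 0 at the annotated start. In Acp5, the NFAT core starts at -117 and the MITF element at -90. In Ctsk, the NFAT core starts at 0 and the PU.1 cores at -233 and -58. Over the 9 member starts, the NFAT core was present in 4, the PU.1 core in 2, the MITF element in 2, the TCF/LEF core in 1 (another start of Acp5) and the AP-1 element in 0. The shares among all 32851 promoters of this length were 21.4% for NFAT, 28.3% for PU.1, 3.77% for MITF, 16% for TCF/LEF and 7.81% for AP-1. The Tnfsf11 promoter in the same table held 0 matches to these 5 motifs. A match describes letters and is not evidence that a factor binds there.

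The first comparison asks how constitutive β-catenin in osteoblasts relates to the osteoclast genes. None of the 9 genes tested passed the adjusted threshold of 0.05 in active β-catenin against wild type (0 of 9, and 0 of 9 at an unadjusted p under 0.05, limma), while 0.784% of all genes passed the adjusted and 12.1% the unadjusted threshold. The differences were negative for 8 of the 9, against 48.7% of all genes, and their median was -0.32 on the log2 scale, against 0.01 over all genes. In each of the 9 genes the arrays of the 2 genotypes overlapped, whereas 6.76% of all genes were lower in active β-catenin without overlap. Over the same arrays Tnfsf11 and Tnfrsf11b, the regulators that osteoblasts make, both rose, as did 0.599% of all genes.

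Nfatc1 encodes the master transcription factor of osteoclast differentiation. Its log2 signal on the probe set used for the gene (1428479_at) was 10.60, 10.67, 10.33 and 10.51 in wild type 1 to 4, 10.59, 10.39 and 10.60 in active β-catenin 1 to 3, and 10.34, 10.61 and 10.28 in FoxO1 deleted 1 to 3. The groups lay on top of each other. The mean was 10.53 ± 0.15 (SD, n = 4) in wild type and 10.53 ± 0.12 (SD, n = 3) under active β-catenin, a difference of 0.00 ± 0.11 (SE) with a 95% interval of -0.24 to 0.24 and an adjusted p of 0.999 (limma). The FoxO1-deleted mean was 10.41 ± 0.18 (SD, n = 3), a difference from wild type of -0.12 with an adjusted p of 0.823 (limma). The other 4 probe sets of Nfatc1 differed between active β-catenin and wild type by -0.03 to 0.19. Between FoxO1 deleted and wild type they differed by -0.42 (1447084_at) to 0.36 (1447085_s_at). None of the 5 passed in either comparison with wild type.

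Oscar encodes a collagen-binding receptor that costimulates RANK signalling. Its signal (1425442_at) was 9.22, 9.45, 7.99 and 8.26 in wild type, 8.68, 7.69 and 8.32 under active β-catenin, and 7.48, 8.60 and 8.48 after FoxO1 deletion. Wild type 1 and 2 stood above each of the other 8 arrays, and FoxO1 deleted 1 was the lowest array. The active β-catenin difference from wild type was -0.50 ± 0.39 (SE), with an adjusted p of 0.684 (limma). After FoxO1 deletion it was -0.54 ± 0.39 (SE), with an adjusted p of 0.760 (limma). The second Oscar probe set (1451710_at) gave -0.28 and -0.38 in these comparisons.

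Itgb3 encodes the β3 chain of the vitronectin receptor, by which osteoclasts hold on to bone. Its signal (1455257_at) was 9.72, 9.65, 9.43 and 9.21 in wild type, 9.34, 8.96 and 9.22 under active β-catenin, and 9.40, 10 and 10.23 after FoxO1 deletion. Here the order of the genotypes differed from that of Oscar, since FoxO1 deleted 2 and 3 were the highest arrays. The difference from wild type was -0.33 ± 0.19 (SE) under active β-catenin, with an adjusted p of 0.551 (limma), and 0.37 ± 0.19 (SE) after FoxO1 deletion, with an adjusted p of 0.651 (limma). A second Itgb3 probe set did not pass the filter, with 0 of 10 arrays above the table's median signal of 7.15.

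Set directly against each other, active β-catenin and FoxO1 deleted differed in Itgb3 by -0.70 ± 0.21 (SE), with an unadjusted p of 0.00566 and an adjusted p of 0.282 (limma). The 3 active β-catenin arrays lay below the 3 FoxO1-deleted arrays, as they did without overlap in 4.16% of all genes. Of the 9 members, 0 passed the adjusted threshold in this comparison, against 0.669% of all genes, and Itgb3 was the only 1 at an unadjusted p under 0.05, which 8.03% of all genes reached. Without FoxO1 deleted 1 the Itgb3 difference was -0.94, and on the arrays with low Xist signal, described further on, it was -0.23. The Nfatc1 difference between these genotypes was 0.12 with an adjusted p of 0.886 (limma) on the probe set used for the gene. Its other probe sets ran from -0.17 (1447085_s_at) to 0.46 (1447084_at). Among them 1425761_a_at gave 0.45, with an unadjusted p of 0.0299 and an adjusted p of 0.575 over all probe sets (limma).

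Calcr, the calcitonin receptor that marks mature osteoclasts, was near the floor of the measurement. Its signal (1418688_at) was 6.49, 6.72, 7.05 and 6.51 in wild type, 6.74, 6.64 and 5.67 under active β-catenin, and 5.89, 6.72 and 7.33 after FoxO1 deletion. Only FoxO1 deleted 3 exceeded the table's median signal. In a fit without the filter, the difference from wild type was -0.34 ± 0.38 (SE) under active β-catenin, with an adjusted p of 0.854 (limma), and -0.05 after FoxO1 deletion, with an adjusted p of 0.986 (limma).

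**Figure D1:**
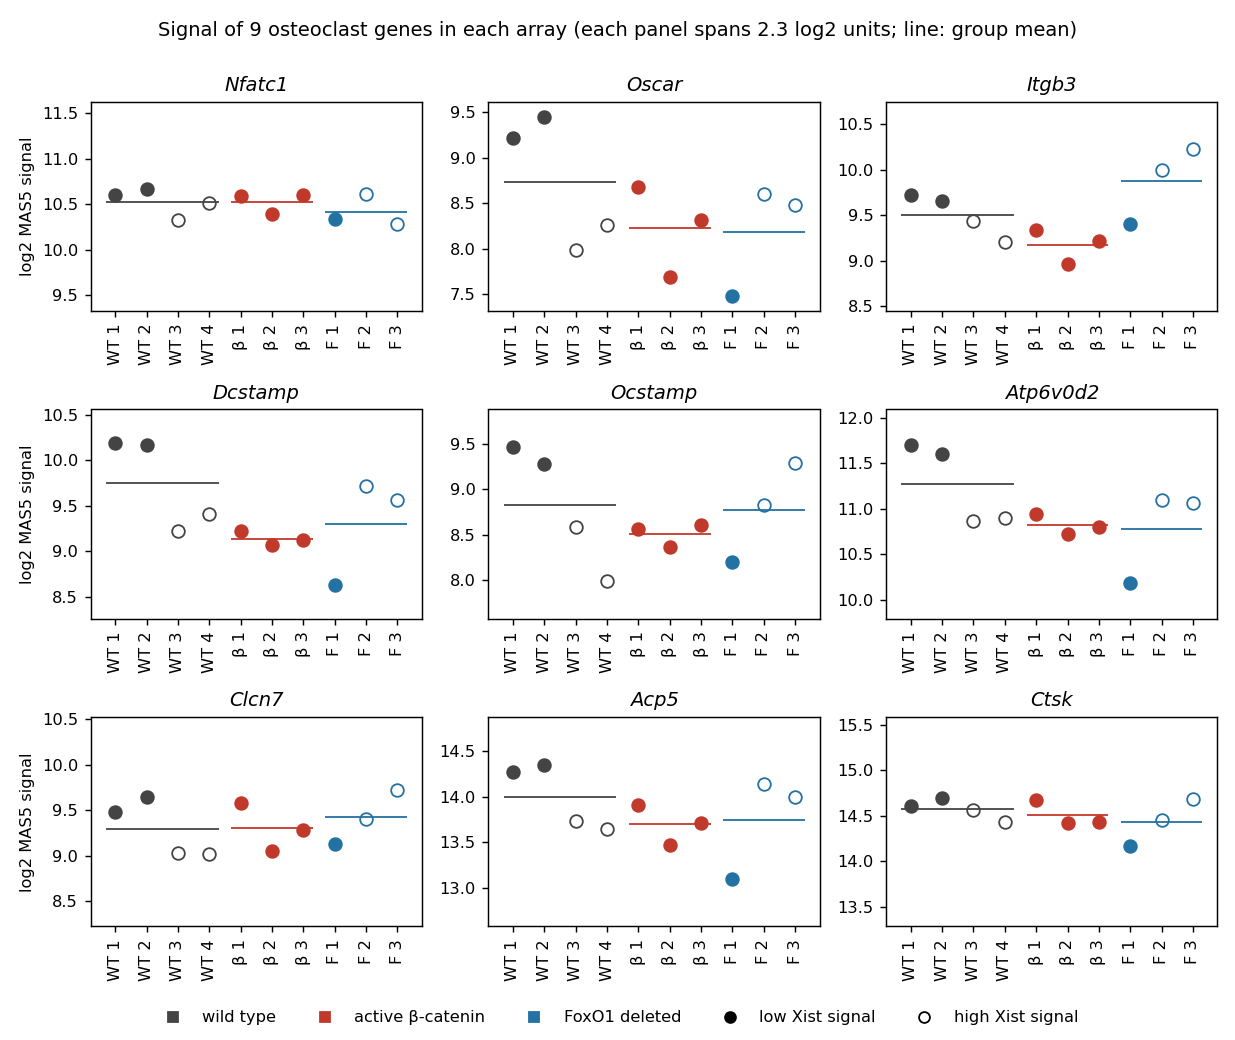
Log2 MAS5 signal (y axis) of the 9 osteoclast genes that passed the filter, 1 panel per gene and 1 point per array (x axis, wild type, active β-catenin labelled β, FoxO1 deleted labelled F), with a line at each genotype's mean. Filled points are arrays with low Xist signal and open points arrays with high Xist signal; wild type 1 and 2 lie above wild type 3 and 4 in 9 of 9 panels.

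Dcstamp and Ocstamp encode membrane proteins that osteoclast precursors need to fuse into multinucleated cells. Dcstamp signal was 10.19, 10.17, 9.22 and 9.41 in wild type, 9.22, 9.07 and 9.13 under active β-catenin, and 8.63, 9.72 and 9.57 after FoxO1 deletion. The active β-catenin arrays were tightly grouped at the level of wild type 3, about 1 log2 unit below wild type 1 and 2. The Dcstamp difference was -0.61 ± 0.29 (SE), with a 95% interval of -1.24 to 0.03 and an adjusted p of 0.436 (limma), and after FoxO1 deletion it was -0.44 with an adjusted p of 0.720 (limma). It was the most negative difference among the 9 genes under active β-catenin.

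Ocstamp signal was 9.46, 9.28, 8.58 and 7.99 in wild type, 8.56, 8.36 and 8.61 under active β-catenin, and 8.20, 8.82 and 9.29 after FoxO1 deletion. The active β-catenin arrays fell inside the wild-type range. The difference from wild type was -0.32 ± 0.34 (SE) under active β-catenin, with an adjusted p of 0.785 (limma). After FoxO1 deletion it was -0.06, with an adjusted p of 0.978 (limma), and its sign changed when wild type 1, wild type 2 or FoxO1 deleted 1 was left out (0.15, 0.09 and 0.23).

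Atp6v0d2 and Clcn7 serve the acid that dissolves mineral. Atp6v0d2 encodes a subunit of the vacuolar proton pump that is enriched in osteoclasts and also takes part in fusion, and Clcn7 encodes the chloride-proton exchanger of the resorptive membrane. Atp6v0d2 signal (1434798_at) was 11.70, 11.60, 10.87 and 10.90 in wild type, 10.94, 10.72 and 10.80 under active β-catenin, and 10.18, 11.09 and 11.06 after FoxO1 deletion. As for Dcstamp, wild type 1 and 2 were the 2 highest arrays and FoxO1 deleted 1 the lowest. The difference from wild type was -0.45 ± 0.25 (SE) under active β-catenin, with an adjusted p of 0.533 (limma), and -0.49 after FoxO1 deletion, with an adjusted p of 0.651 (limma). The second Atp6v0d2 probe set (1444176_at) gave -0.61 under active β-catenin, with an unadjusted p of 0.0319 and an adjusted p of 0.371 over all probe sets (limma). After FoxO1 deletion it gave -0.55, with an unadjusted p of 0.0491 and an adjusted p of 0.630 over all probe sets (limma).

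Clcn7 signal (1452702_at) was 9.48, 9.65, 9.03 and 9.02 in wild type, 9.58, 9.05 and 9.28 under active β-catenin, and 9.13, 9.41 and 9.73 after FoxO1 deletion. The 3 genotypes overlapped throughout. The difference from wild type was 0.01 ± 0.20 (SE) under active β-catenin, with an adjusted p of 0.995 (limma), and its sign turned in 9 of 23 other settings, quantile normalization (-0.01) among them. After FoxO1 deletion it was 0.13, with an adjusted p of 0.893 (limma), and its sign turned without FoxO1 deleted 3 (-0.03). The other 2 Clcn7 probe sets gave -0.15 and 0.02 under active β-catenin.

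Acp5 encodes tartrate-resistant acid phosphatase and Ctsk encodes cathepsin K, the protease that cuts bone collagen. Acp5 signal was 14.27, 14.35, 13.73 and 13.65 in wild type, 13.91, 13.47 and 13.71 under active β-catenin, and 13.10, 14.14 and 14.00 after FoxO1 deletion. These values lay well above the table's upper quartile of 9.06 in every array, so the RNA of this osteoclast enzyme was readily measured in samples labelled as osteoblasts. The difference from wild type was -0.30 ± 0.25 (SE) under active β-catenin, with an adjusted p of 0.695 (limma). After FoxO1 deletion it was -0.25, with an adjusted p of 0.830 (limma), and without FoxO1 deleted 1 its sign turned (0.07).

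Ctsk signal was 14.61, 14.70, 14.57 and 14.43 in wild type, 14.68, 14.42 and 14.43 under active β-catenin, and 14.17, 14.45 and 14.69 after FoxO1 deletion. The arrays of the 3 genotypes overlapped. The difference from wild type was -0.07 ± 0.12 (SE) under active β-catenin, with a 95% interval of -0.33 to 0.20 and an adjusted p of 0.890 (limma). After FoxO1 deletion it was -0.14, with an adjusted p of 0.793 (limma).

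The second comparison asks the same of FoxO1 deletion. Again 0 of the 9 genes passed the adjusted threshold, and 0 of 9 an unadjusted p under 0.05 (limma), while 0.0264% of all genes passed the adjusted and 7.83% the unadjusted one. The differences were negative for 7 of the 9, with Itgb3 and Clcn7 positive, against 5678 of the 11357 genes tested, and their median was -0.14 against 0.00 over all genes. In each of the 9 the arrays of FoxO1 deleted and wild type overlapped, while 4.44% of all genes were lower and 4.59% higher without overlap. Both comparisons use the same 4 wild-type arrays, so their likeness is not independent.

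**Figure D2:**
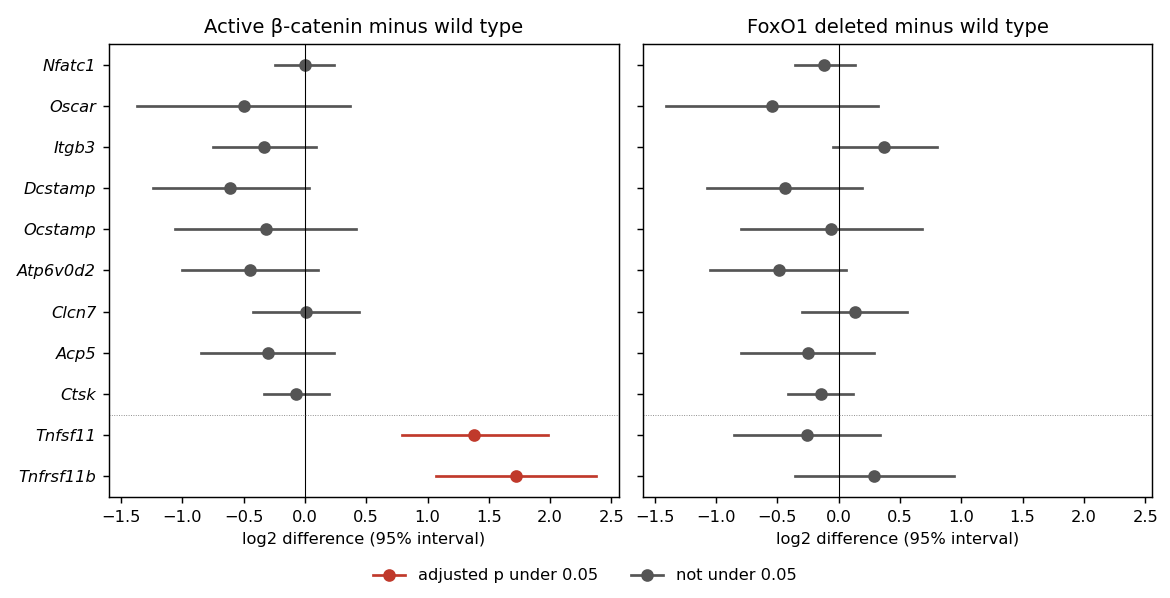
Log2 difference from wild type (x axis, points) with its 95% interval (bars) for the 9 osteoclast genes and, below the dotted line, Tnfsf11 and Tnfrsf11b, under active β-catenin (left) and FoxO1 deleted (right). Red marks an adjusted p under 0.05, reached by Tnfsf11 (1.38) and Tnfrsf11b (1.72) under active β-catenin; every interval of the 9 osteoclast genes includes 0.

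Tnfsf11 encodes RANKL, the ligand that osteoclast precursors need. Its signal (1419083_at) was 10.04, 10.04, 9.12 and 9.01 in wild type, 11.37, 10.63 and 10.81 under active β-catenin, and 9.12, 9.29 and 9.48 after FoxO1 deletion. The 3 active β-catenin arrays were above all others. Tnfsf11 rose by 1.38 ± 0.27 (SE) under active β-catenin against wild type, 2.61-fold, with an adjusted p of 0.0452 (limma), and its second probe set (1451944_a_at) gave 1.2 with an adjusted p of 0.0380 over all probe sets. The call stood close to the threshold. It was lost when any of the wild-type or active β-catenin arrays, FoxO1 deleted 1 or FoxO1 deleted 2 was left out, with differences between 1.17 and 1.55 and adjusted p up to 0.163. Against FoxO1 deleted the difference was 1.64, with an adjusted p of 0.0271 (limma). That call was lost in 9 of 23 other settings: without any 1 of the active β-catenin or FoxO1-deleted arrays (1.42 to 1.79), with the replicate block (1.64, adjusted p 0.0638), with a term for Xist signal (1.32, 0.219) and on the low-Xist arrays described further on (1.82, 0.0679).

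Tnfrsf11b encodes osteoprotegerin, the decoy receptor. Its signal (1449033_at) was 7.66, 8.11, 8.41 and 8.70 in wild type, 10.40, 9.95 and 9.47 under active β-catenin, and 8.38, 9.06 and 8.09 after FoxO1 deletion. Again the 3 active β-catenin arrays were above all others. Tnfrsf11b rose by 1.72 ± 0.30 (SE) against wild type, 3.29-fold, with an adjusted p of 0.0234 (limma), and the call was lost without wild type 1, 2 or 3 or active β-catenin 1 or 2, with an adjusted p of at most 0.106. A second probe set did not pass the filter. The difference from FoxO1 deleted was 1.43 with an adjusted p of 0.103 (limma). In FoxO1 deleted against wild type, Tnfsf11 differed by -0.26 and Tnfrsf11b by 0.29, with adjusted p of 0.841 and 0.837 (limma).

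Because ligand and decoy act against each other, their log2 difference within an array, Tnfsf11 minus Tnfrsf11b, was compared between genotypes. It was 2.38, 1.93, 0.71 and 0.31 in wild type, 0.97, 0.68 and 1.34 under active β-catenin, and 0.74, 0.23 and 1.39 after FoxO1 deletion. All active β-catenin values fell inside the wild-type range. The means were 1.33 ± 0.98 (SD, n = 4), 1.00 ± 0.33 (SD, n = 3) and 0.79 ± 0.58 (SD, n = 3). The difference between active β-catenin and wild type was -0.34, with an exact two-sided permutation p of 0.571, where the smallest p this design allows is 0.0571. After FoxO1 deletion it was -0.55, with an exact permutation p of 0.400, and both were 0.571 after adjustment over these 2 tests. Without wild type 1 the active β-catenin difference was 0.01.

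**Figure D3:**
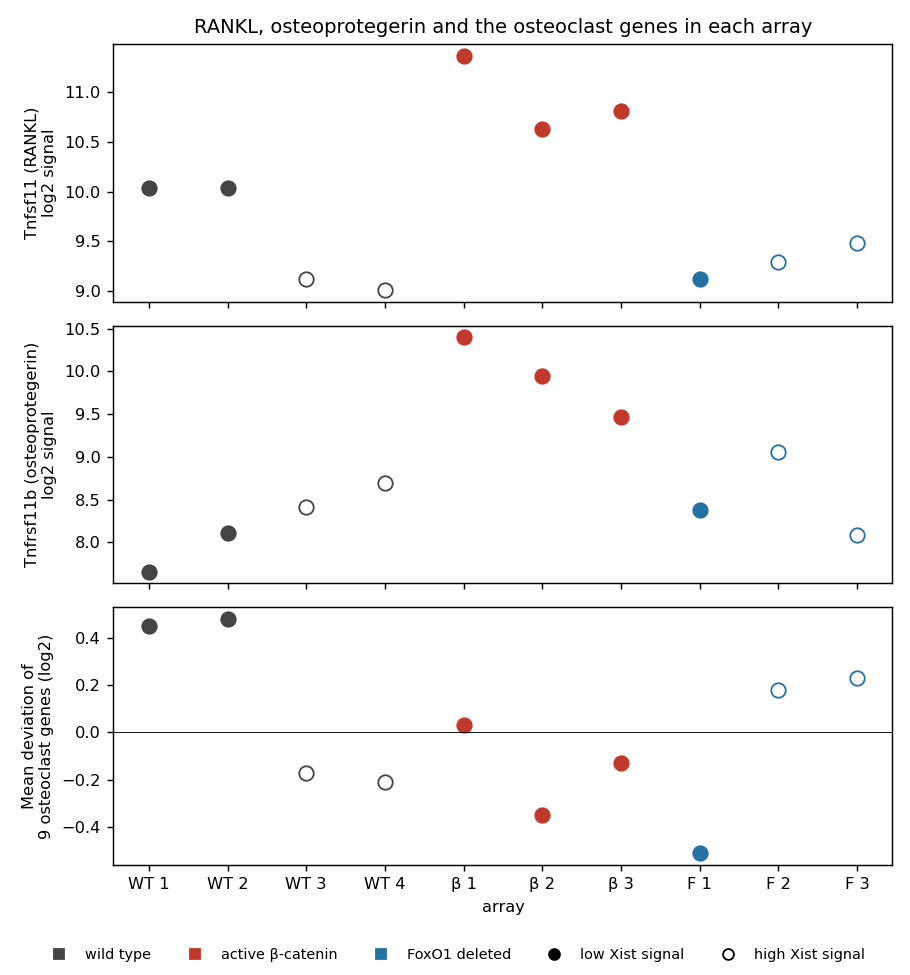
Log2 signal of Tnfsf11 (top) and Tnfrsf11b (middle) and the mean log2 deviation of the 9 osteoclast genes from their means over all arrays (bottom), by array (x axis). Tnfsf11 and Tnfrsf11b are above all other arrays in the 3 active β-catenin arrays, whose osteoclast gene means are 0.03, -0.35 and -0.13. The mean of -0.35 (active β-catenin 2) lies below the wild-type range of -0.21 to 0.48, and the others lie inside it.

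The wider spread of the osteoclast genes was within genotypes. Wild type 1 and 2 both lay above wild type 3 and 4 in 9 of 9 members, against 28.4% of all genes tested. The gap between the pair means had a median of 0.62, against 0.03 over all genes, and ran from 0.15 in Ctsk to 1.21 in Oscar. In Oscar, Dcstamp, Atp6v0d2 and Acp5 wild type 1 and 2 lay above all other 8 arrays, as in 4.97% of all genes. The arrays within each pair were closely alike over all genes tested, with r of 0.990 for wild type 1 and 2 and 0.989 for 3 and 4, against 0.971 to 0.973 across the pairs.

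FoxO1 deleted 1 stood apart from the other two arrays of its genotype. It was below both in 8 of 9 members, all but Nfatc1, against 27.7% of all genes, by a median of -0.86 against -0.01 over all genes. The exception holds for the probe set used for Nfatc1. On every other Nfatc1 probe set FoxO1 deleted 1 was below both as well. In Oscar, Dcstamp, Atp6v0d2, Acp5 and Ctsk it was the lowest of the 10 arrays, as in 7.07% of all genes. The median SD of the 9 genes was 0.36 in wild type and 0.52 after FoxO1 deletion, above the medians of 0.13 and 0.19 over all genes. With active β-catenin it was 0.15, against 0.17 over all genes.

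Several measures moved with this split, and their part in it was not tested. Xist, the RNA of the inactive X chromosome and so a marker of female cells, had a signal of 8.96 and 7.29 in wild type 1 and 2 and of 14.25 and 14.05 in wild type 3 and 4. It was 7.06, 5.91 and 6.56 under active β-catenin, and 7.88, 14.22 and 14.43 after FoxO1 deletion. Arrays below 11 are called low here, so that all 3 active β-catenin arrays, 2 wild-type arrays and 1 FoxO1-deleted array were low. Both pairs of wild-type arrays thus differed in Xist signal, and in wild type low Xist went with high osteoclast gene signal, but in FoxO1 deleted with low signal.

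Markers of other cells moved too. All 8 neutrophil markers tested were higher in wild type 1 and 2 than in wild type 3 and 4, and all 8 had negative differences in both comparisons with wild type. Their summed linear signal ran from 13476 to 29189 in wild type, from 2722 to 3797 under active β-catenin and from 1261 to 10021 after FoxO1 deletion. Lcn2, an iron-binding protein of neutrophil granules, fell by 2.71 on the log2 scale under active β-catenin, with an adjusted p of 0.0207 (limma). Its signal was 9.94, 9.77, 9.15 and 9.11 in wild type and 6.91, 6.69 and 6.74 under active β-catenin. The active β-catenin values were below the filter's 7.15, so Lcn2 passed the filter through its higher wild-type arrays. The size of the fall is therefore uncertain. The call was lost in 9 of 23 other settings, among them leaving out wild type 1, 2 or 4 or any active β-catenin array, and the difference stayed between -3.07 and -2.55. S100a8 (-2.55), Ltf (-1.80) and Ngp (-2.68) did not pass, with adjusted p of 0.0702 to 0.0914 (limma).

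The 6 erythroid markers tested showed the same order, with sums of 1732 to 4386 in wild type, 989 to 1399 under active β-catenin and 930 to 2325 after FoxO1 deletion, and 0 of 6 passed the test. The differences under active β-catenin were -2.98 for Klf1, -2.07 for Slc4a1 and -2.76 for Rhag, with adjusted p of 0.153 to 0.159 (limma). Klf1 (2.36, 4.65 and 6.02) and Rhag (3.86, 5.42 and 4.66) lay below the table's median of 7.15 in the active β-catenin arrays. The size of their differences is therefore uncertain. The other markers differed less, Alas2 by -1.08, Tal1 by -0.39 and Epor by -0.05. All 6 were higher in wild type 1 and 2 than in wild type 3 and 4, against 28.4% of all genes. The 8 muscle markers went the other way within wild type. Their gap, the mean of wild type 1 and 2 minus that of 3 and 4, ran from -0.67 for Acta1 to -1.83 for Actn3. The median gap over all genes was 0.03. Muscle sums overlapped between genotypes, at 54135 to 111184, 61462 to 126505 and 65200 to 117280, and Actn3 (1.01), Acta1 (0.22) and Tnnc2 (0.21) did not pass under active β-catenin. The mean log2 deviation of the chondrocyte markers was highest in FoxO1 deleted 1 (1.38), the array with the lowest osteoclast gene mean (-0.51). Their sums ran from 12448 to 19071 in wild type, 21162 to 28842 under active β-catenin and 20584 to 55966 after FoxO1 deletion. Under active β-catenin Sox9 (0.87), Col2a1 (0.83) and Col9a1 (0.75) were higher and did not pass, with adjusted p of 0.0838 to 0.283 (limma). These 3 had the smallest p of the 9 chondrocyte markers tested, of which 0 had a negative difference. Col9a3 (0.73) and Matn1 (0.79) did not pass either, and their arrays overlapped.

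Macrophage markers, from the nearest relatives of the osteoclast, divided within wild type. Of the 16 tested, 7 were higher in both wild type 1 and 2 than in wild type 3 and 4, against 28.4% of all genes, and 0 passed in either comparison with wild type. These 7 were Csf1r, Cd68, Lyz2, Itgam, Ptprc, Mpeg1 and Laptm5, with wild-type gaps from 0.39 for Csf1r to 1.04 for Mpeg1. In all 7, FoxO1 deleted 1 was below the mean of FoxO1 deleted 2 and 3, by -0.27 for Csf1r to -1.72 for Mpeg1, which is the order seen in the members. The wild-type gap was negative for the other 9, from -0.19 for Adgre1 and Cd14 to -0.76 for Cd163. Among these 9, FoxO1 deleted 1 was also below that mean in Aif1 (-1.14), C1qa, C1qb, C1qc, Cx3cr1 and Cd163 (-0.29). It was above that mean in Adgre1 (0.09), Cd14 (0.16) and Mrc1 (0.29). Taken against each array, FoxO1 deleted 1 was below both FoxO1 deleted 2 and 3 in each of the 7. Among the other 9 this held only for Cx3cr1 and Cd163. In Aif1, C1qa, C1qb and C1qc FoxO1 deleted 1 was above FoxO1 deleted 2, and the mean was raised by FoxO1 deleted 3. Under active β-catenin Cx3cr1 differed by 0.50, Itgam by -0.57 and Adgre1 by 0.26, with adjusted p of 0.397 to 0.502 (limma). Their sums were 24393 to 30691 in wild type, 26084 to 29065 under active β-catenin and 23354 to 37923 after FoxO1 deletion, and FoxO1 deleted 3 had the highest. Endothelial markers had sums of 7630 to 7844, 9073 to 10166 and 7973 to 8651 in the 3 genotypes, with 0 of 10 passing. Under active β-catenin Kdr (0.42), Eng (0.60) and Pecam1 (0.47) were higher and did not pass, with adjusted p of 0.0824 to 0.166 (limma). These 3 had the smallest p of the endothelial list, whose median difference was 0.43. Cdh5 (0.34), Tie1 (0.48) and Robo4 (0.60) were higher as well. In Tek (0.11) and Emcn (0.12) the arrays overlapped, and 1 of the 10 differences was negative (Vwf, -0.11). The log2 signal of the 3′ probe set of Actb minus that of its 5′ probe set, a sign of RNA quality, was 0.60 to 0.77 in wild type, 0.85 to 0.88 under active β-catenin and 0.80 to 0.99 after FoxO1 deletion. Every wild-type array thus lay below every other array. In both comparisons with wild type, this measure and genotype cannot be told apart, also for the genes that passed. No marker is listed at 0, since the table holds log2 values of signal.

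The defining markers of osteoblasts were present, with Col1a1 between 15.04 and 15.35 and Ibsp between 14.59 and 14.95 over the 10 arrays. The 9 osteoblast and osteocyte markers tested had overlapping sums of 134091 to 148174 in wild type, 144738 to 160894 under active β-catenin and 142352 to 171355 after FoxO1 deletion, and 0 of 9 passed. Other markers of the list differed between active β-catenin and wild type in opposite directions, although none passed. Mepe, a matrix protein of osteocytes, was 8.16, 8.71, 8.54 and 8.62 in wild type and 7.96, 4.15 and 6.37 under active β-catenin, a difference of -2.35 with an adjusted p of 0.152 (limma). Sost, the osteocyte inhibitor of Wnt signalling, was higher by 0.95 and Phex, an osteocyte endopeptidase, by 0.54, with adjusted p of 0.0637 and 0.0889 (limma). Ctnnb1 was 14.48 ± 0.09 (SD, n = 4) in wild type and 14.45 ± 0.04 (SD, n = 3) under active β-catenin, and Foxo1 was 10.04 ± 0.07 (SD, n = 4) and 9.87 ± 0.24 (SD, n = 3) after FoxO1 deletion, with an adjusted p of 0.706 (limma). The sources used here do not say whether the probes lie inside the altered part of either gene, so these values check no label.

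**Figure D4:**
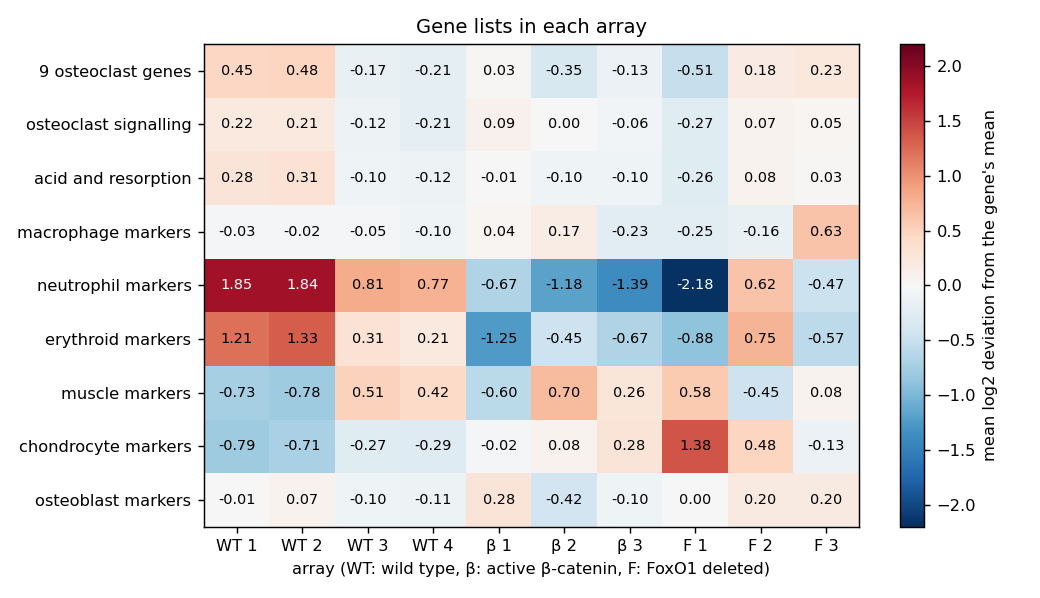
Mean log2 deviation of each gene list from its genes' means over all arrays (colour and number in each cell), with lists as rows and arrays as columns. The 9 osteoclast genes read 0.45 and 0.48 in wild type 1 and 2 but -0.51 in FoxO1 deleted 1; neutrophil markers read 1.85 and 1.84 in the former but -2.18 in the latter.

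The genotypes were then compared among arrays of like Xist signal. Among low-Xist arrays, 2 wild type against 3 under active β-catenin, 3 of the 9 members were lower at an adjusted p under 0.05 (limma), against 0.616% of all genes, and all 9 differences were negative with a median of -0.61. Dcstamp differed by -1.04 ± 0.12 (SE) with an adjusted p of 0.00761, Ocstamp by -0.86 ± 0.15 (SE) with 0.0393, and Atp6v0d2 by -0.83 ± 0.10 (SE) with 0.0132. Oscar gave -1.10 with an adjusted p of 0.119 and Acp5 -0.61 with 0.0680. On these arrays Tnfrsf11b was higher by 2.06, with an adjusted p of 0.0152, and Tnfsf11 by 0.90, with 0.0862 (limma).

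These calls rest on wild type 1 and 2 as the only wild-type arrays, the pair that correlated at 0.990. That pair was already the higher wild-type pair in 9 of 9 members. Lower values under active β-catenin on these arrays therefore cannot be told from the gap within wild type. The negative signs and the count of calls, also when set against all genes, describe that pair and are no separate test of active β-catenin. With each similar wild-type pair averaged to 1 unit over all arrays, 0 of 9 members passed in active β-catenin against wild type, against 0.0792% of all genes. With a term for Xist signal in the fit of all 10 arrays, 0 of 9 passed, against 0.308% of all genes (limma). The neutrophil and erythroid deviations of these 2 wild-type arrays, 1.84 to 1.85 and 1.21 to 1.33, were also the highest of the 10 arrays.

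For FoxO1 deletion the differences had opposite signs in the Xist classes. Among low-Xist arrays FoxO1 deleted 1, the only FoxO1-deleted array of that class, was lower than the mean of wild type 1 and 2 in 9 of 9 members with a median of -1.17. Dcstamp differed by -1.55, Atp6v0d2 by -1.47 and Acp5 by -1.21. The fit called these 3 lower, against 0.458% of all genes, but it takes the spread of the lone array from the active β-catenin arrays and the similar wild-type pair, so these calls describe that array and are no test of FoxO1 deletion. Among high-Xist arrays, 2 wild type against 2 FoxO1 deleted, 9 of 9 differences were positive with a median of 0.38. There 0 of 9 members and 0% of all genes passed (limma), although 972 genes had an unadjusted p under 0.05. The difference between the Xist classes was not tested. It rests on FoxO1 deleted 1 as a single array, a median of -0.86 from FoxO1 deleted 2 and 3. It also rests on the wild-type split, a median gap of 0.62 between the pairs. The positive high-Xist differences are taken against the lower pair, wild type 3 and 4.

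**Figure D5:**
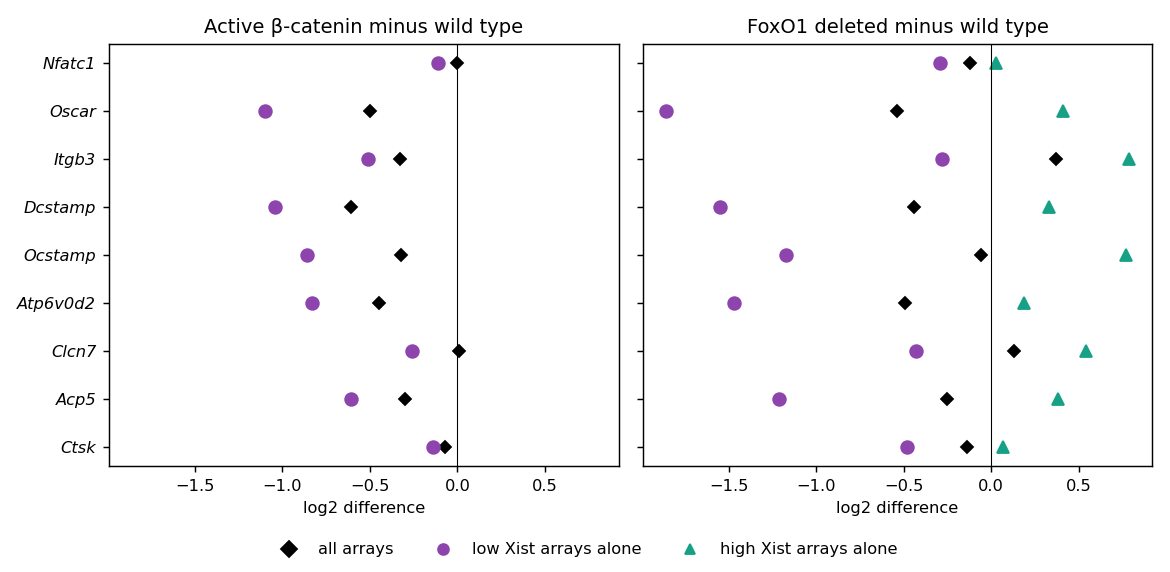
Log2 difference from wild type (x axis) of the 9 osteoclast genes under active β-catenin (left) and FoxO1 deleted (right), over all arrays (diamonds), low-Xist arrays alone (circles) and high-Xist arrays alone (triangles, FoxO1 deleted only, since no active β-catenin array was high). Low-Xist differences are negative in 9 of 9 genes in both panels and high-Xist differences positive in 9 of 9.

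Over the 10 arrays the members moved together. The 36 pairs of the 9 genes had a median Pearson r of 0.72, against 0.00 over all pairs of genes tested, from -0.03 for Itgb3 and Nfatc1 to 0.98 for Atp6v0d2 and Dcstamp. Each gene was also set against the mean deviation of the other members tested. Acp5 followed it most closely, with r of 0.97, and Nfatc1 least, with 0.51, followed by Itgb3 with 0.59. These are descriptions over 10 arrays that share genotypes, near-identical pairs and the differences in other cell markers. The likeness of Nfatc1 differed between its probe sets, since 1417621_at fell from 10.46 and 10.31 in wild type 1 and 2 to 9.79 and 9.73 in wild type 3 and 4, by a mean of 0.63, whereas the probe set used for the gene differed by 0.21.

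The 5 genes outside the 10 whose pattern was most like the members' mean deviation were Snx10 and Slc37a2 (r of 0.99 each), Clec4a2 (0.97), Cd68 (0.96) and Arsb (0.95). Snx10 encodes a sorting nexin whose loss causes osteopetrosis, Slc37a2 a phosphate-linked sugar transporter, Clec4a2 a C-type lectin receptor of myeloid cells, Cd68 a lysosomal protein of macrophages and osteoclasts, and Arsb a lysosomal sulfatase. Snx10 was 11.25, 11.28, 10.80 and 10.73 in wild type, 10.97, 10.49 and 10.76 under active β-catenin, and 10.42, 11.10 and 11.11 after FoxO1 deletion, which is the order seen for Acp5 in its wild-type pairs and in FoxO1 deleted 1. The 5 differences under active β-catenin ran from -0.17 for Clec4a2 to -0.41 for Slc37a2, and none passed the test.

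Wider lists of the pathway also held few calls. With 0.784% of all genes passing under active β-catenin and 0.0264% after FoxO1 deletion, lists of this size would hold few in any case. Of 24 genes of osteoclast signalling tested, 0 passed in either comparison with wild type, and their median difference under active β-catenin was -0.01. Of the 24, 16 were higher in wild type 1 and 2 than in wild type 3 and 4, against 28.4% of all genes. Tnfrsf11a, the receptor RANK, was between 7.44 and 8.28 over the 10 arrays and differed by -0.12 with an adjusted p of 0.889 (limma). Src, a kinase needed for the ruffled border, differed by -0.33 (adjusted p of 0.391), Spi1, which encodes PU.1, by -0.33 (0.605), and Rela, an NF-κB subunit, by 0.16 (0.563). Tyrobp, the DAP12 adaptor, was 12.21 and 12.26 in wild type 1 and 2 and 11.53 and 11.41 in wild type 3 and 4, a gap like that of the members.

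Of 9 inhibitors of osteoclast formation, 0 passed in either comparison, and the differences under active β-catenin had a median of 0.19. Id3 (0.31), Id1 (0.40) and Bcl6 (0.34) had the smallest p among them. Irf8, a brake on Nfatc1, was 9.59 in FoxO1 deleted 3 and between 6.90 and 7.60 in the other 9 arrays. Of 22 genes of acid secretion and resorption other than the members, 0 passed. Under active β-catenin 20 had negative differences, against 48.7% of all genes, with a median of -0.15. In 19 of the 22, wild type 1 and 2 were higher than wild type 3 and 4, against 28.4% of all genes. The pump subunits Atp6v1h and Atp6v1a differed by -0.28 and -0.42 and the membrane protease Mmp14 by 0.23, with adjusted p of 0.200 to 0.410 (limma). In the same list, Mmp9, a gelatinase of osteoclasts, was 14.13, 14.27, 13.54 and 13.48 in wild type and 13.82, 13.74 and 13.82 under active β-catenin. Car2, the carbonic anhydrase that supplies protons, was 11.83, 11.88, 10.67 and 10.61 in wild type, 10.40, 10.83 and 10.73 under active β-catenin, and 9.56, 10.93 and 9.70 after FoxO1 deletion. Its difference was -0.59 under active β-catenin and -1.18 after FoxO1 deletion, with adjusted p of 0.594 and 0.504 (limma). Tyrobp, Irf8, Mmp9, Car2 and Tnfrsf11a were named after their values were seen.

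Of 16 genes of fusion and adhesion, 1 passed under active β-catenin and 0 after FoxO1 deletion, against 0.784% and 0.0264% of all genes. Gsn, the actin-severing protein gelsolin, fell by 0.48 on the log2 scale, with an adjusted p of 0.0287 (limma). It was 13.94, 14.16, 14.06 and 14.09 in wild type and 13.63, 13.62 and 13.49 under active β-catenin. The call was lost without any 1 of the wild-type or active β-catenin arrays (-0.52 to -0.44), and the mean of its kept probe sets gave -0.08. Gsn is expressed by many cell types. Mst1r, a receptor tyrosine kinase, Myo10, an unconventional myosin, and Sh3pxd2a, a podosome scaffold, differed by -0.57, -0.32 and 0.19, with adjusted p of 0.166 to 0.391 (limma). Against FoxO1 deleted, Mst1r differed under active β-catenin by -0.91, with an adjusted p of 0.0484 (limma), and that call was lost in 18 of 22 other settings, leaving out any 1 of the 10 arrays among them (-1.05 to -0.78). Of 15 regulators that osteoblasts make, Tnfsf11 and Tnfrsf11b passed and 13 did not. Csf1, the other cytokine that osteoclast precursors require, differed by 0.14 with an adjusted p of 0.649 (limma), and Cxcl12, a chemokine that draws such precursors, was 12.30 to 12.39 in wild type and 11.84, 12.21 and 11.95 under active β-catenin and did not pass. The ephrin Efnb2 (0.43) and Wnt5a (0.36) did not pass either, with adjusted p of 0.0795 and 0.179 (limma).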

How the data were processed

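The deposited table holds log2 MAS5 signal for 45101 probe sets on 10 arrays. The submitters' processing notes name MAS5 and give no version. Taken as log2, the deposited values had a mean of linear signal, after trimming 2% at each end, of 499.993 to 500.013 in every array, and no further scaling was applied. Array number limits the precision. Symbols came from the platform annotation, which assigns 34958 probe sets to a single gene, 932 to several and 9211 to none. A probe set was kept if its third-highest value exceeded the table's median of 7.15, which left 20127 with 1 gene, and the kept probe set of highest mean stood for each of the 11357 genes.

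Differences were fitted with limma 3.58.1 in R 4.3.3 (lmFit, and eBayes allowing a mean-variance trend; two-sided), with all 10 arrays in 1 fit, 7 residual degrees of freedom and Benjamini-Hochberg adjustment over all genes at 0.05. The fit was tested on simulated data. Values are mean ± SD or log2 difference ± SE.

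The members, the lists and the tests were chosen with earlier results of these data known. Named are all members, Tnfsf11, Tnfrsf11b, Ctnnb1, Foxo1, Xist, of each of the 12 lists the genes that pass against wild type and up to 3 more with the smallest p for active β-catenin against wild type, the 5 genes most like the members, and others said to be named after their values were seen, among them Col1a1, Ibsp, Csf1 and the macrophage markers with a gap within wild type. Other settings were 2 filters, 2 scalings, 16 added on the linear scale, 2 ways to represent a gene, the compared groups alone, a replicate block, array weights, similar wild-type arrays averaged, an Xist term, low-Xist arrays alone and leaving out each array. High-Xist arrays alone were added after the data were seen. Same-numbered samples showed no common deviation (r of -0.287 to 0.290). These values cannot exclude pairing by number, because the deviations also carry the splits within genotypes. The main fit did not pair the samples, and the replicate block shows the results if they are paired.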

Additional observations from a re-analysis of the deposited data

How the results depend on the processing

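In active β-catenin against wild type, the median member difference stayed between -0.61 and -0.15 over 23 other settings, and the count of members called stayed at 0 except on low-Xist arrays alone, where it was 3. With FoxO1 deleted against wild type that count was also 3 on low-Xist arrays, where 1 array stands for FoxO1 deletion, and the median difference was -1.17 there and 0.38 on high-Xist arrays. For active β-catenin against FoxO1 deleted the median was 0.34 on low-Xist arrays. Tnfsf11 kept its direction in active β-catenin against wild type and lost its call with no filter (1.38, adjusted p 0.0540), only the compared groups (1.38, 0.0583), each kept probe set as its own row (1.38, 0.0506), array weights (1.28, 0.0607), similar wild-type arrays averaged (1.38, 0.225), an Xist term (1.14, 0.137), low-Xist arrays (0.90, 0.0862) and the replicate block (1.2, 0.166). Leaving out 1 array gave 1.17 to 1.55. Tnfrsf11b lost its call with the replicate block (1.88, 0.0698) and with wild-type arrays averaged (1.72, 0.202), and leaving out 1 array gave 1.49 to 1.96. The replicate block changed no call among the members. Tnfsf11 minus Tnfrsf11b ran from -0.68 to 0.01 when 1 array was left out.

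The sign turned, with no call in any of these cases, for Clcn7 in active β-catenin against wild type under quantile normalization (-0.01), the mean of probe sets (-0.04), the replicate block (-0.08), array weights (-0.05), an Xist term (-0.07), low-Xist arrays (-0.26) and leaving out 1 array (-0.13 to 0.13). With FoxO1 deleted against wild type it turned on high-Xist arrays for Nfatc1 (0.03), Oscar (0.41), Dcstamp (0.33), Ocstamp (0.77), Atp6v0d2 (0.19), Acp5 (0.38), Ctsk (0.07) and Tnfsf11 (0.32), on low-Xist arrays for Itgb3 (-0.28) and Clcn7 (-0.43), and for Clcn7 under array weights (-0.07). Leaving out 1 array gave -0.03 to 0.27 for Clcn7, -0.34 to 0.23 for Ocstamp and -0.45 to 0.07 for Acp5. Oscar was not tested under the stricter filter. The cause of these changes was not tested. Low signal limits Calcr, which 1 of 10 arrays measured above the table's median.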
